A study of Homo sapiens with 12 samples.

Results

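The genes that carry pyruvate into mitochondria and convert it to acetyl-CoA, or that switch this conversion off, were followed through all groups of an RNA-seq study of epirubicin resistance. They are the pyruvate dehydrogenase subunit genes PDHA1, PDHB, DLAT and PDHX, the kinase genes PDK1, PDK2, PDK3 and PDK4, and the carrier genes MPC1 and MPC2, which makes 10 of the 58735 genes listed in each deposited table. The members were taken by symbol from GENCODE 29. SK-BR-3 cells are a long-cultured human breast cancer line with amplified ERBB2. SK/EPI is the epirubicin-resistant line raised from it by exposure over a long time to rising amounts of epirubicin, an anthracycline. SK/EPI-siBCRP cells are SK/EPI cells given an siRNA against BCRP, the drug efflux pump encoded by ABCG2, for 48 h, and SK/EPI-siNC cells were given a control siRNA for the same time. Each of the 4 groups has 3 libraries of poly-A selected RNA, prepared as triplicates of the cells. Both siRNA groups carry whatever SK/EPI cells acquired during selection, and all resistant libraries come from 1 resistant line. Nothing in the labels says that the triplicates were independent cultures, so p-values measure the spread between these libraries, which may be technical.

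Pyruvate made by glycolysis crosses the inner mitochondrial membrane through a carrier made of MPC1 and MPC2. The pyruvate dehydrogenase complex then oxidizes it to acetyl-CoA, the fuel of the citric acid cycle, with an E1 enzyme of PDHA1 and PDHB chains, an E2 core of DLAT that passes the acetyl group over a lipoyl arm, and an E3 enzyme, DLD, held in place by the E3-binding protein PDHX. The PDK kinases shut the complex off by phosphorylating PDHA1, and the phosphatases PDP1 and PDP2 turn it on again. Cancer cells often keep pyruvate out of mitochondria and reduce it to lactate, and the PDK genes are well-known points of that control.

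The siRNA against BCRP is named siBCRP #1 for these libraries, and its strands are shown because ABCG2 in these cells checks the labels. Bases 2 to 8 of each strand, the stretch that pairs first with other mRNAs when a strand acts like a miRNA, are in capitals:
siBCRP #1, lower strand: aUAACCAGcugauucaaaguauccc
siBCRP #1, upper strand: gGGAUACUuugaaucagcugguuau
Among the GENCODE 29 transcripts of 19669 coding genes, a match to the whole 25-base target was found in 1 gene, ABCG2. The 7 bases that pair with the capitals of the lower strand occur in transcripts of 15.4% of these genes, and of the 10 members only in PDK1. Those of the upper strand occur in 11.8% of the genes and in no member. Such a match is a description of letters and not of a site.

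The ABCG2 level was 0.075, 0.022 and 0.052 FPKM (sequenced fragments for each kilobase of exon, divided by a library total) in SK-BR-3 replicates 1 to 3, from 2 to 6 reads. It was 33.9, 35.9 and 32.7 FPKM in SK/EPI cells, 32.5, 32.7 and 33.7 FPKM in SK/EPI-siNC cells and 2.84, 3.47 and 2.91 FPKM in SK/EPI-siBCRP cells. ABCB1, the gene of the efflux pump P-gp, had 0 to 2 reads per SK-BR-3 library and lay between 325 and 328 FPKM in SK/EPI cells. The libraries held 15830381 to 20545811 reads on genes, and in all 12 pairs of libraries from the same group the difference exceeded counting noise. Mitochondrial transcripts took 4.18% to 4.23% of the reads in SK-BR-3 cells, 5.10% to 5.38% in SK/EPI cells, 3.58% to 3.68% in SK/EPI-siNC cells and 3.73% to 3.84% in SK/EPI-siBCRP cells. The summed level of 7 markers of the line (ERBB2, GRB7, KRT8, KRT18, KRT19, EPCAM and CDH1) was 3536 to 3732 FPKM in SK-BR-3 and 2206 to 2324 FPKM in SK/EPI libraries, with CDH1 at no more than 3 reads in both. It was 2610 to 2658 FPKM in SK/EPI-siNC and 2180 to 2219 FPKM in SK/EPI-siBCRP libraries. The parts of this sum moved both ways between SK-BR-3 and SK/EPI cells. Mean levels in SK/EPI cells were 4.95-fold lower for ERBB2, 3.24-fold lower for KRT19 and 2.45-fold lower for GRB7. Those of KRT18, KRT8 and EPCAM were 1.68-fold, 1.18-fold and 1.06-fold higher. The summed level of 5 markers of other cell types (PTPRC, PECAM1, COL1A1, COL1A2 and ALB) did not pass 1.61 FPKM in any library.

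Genes were tested within each table with limma on log2(FPKM + 1), with Benjamini-Hochberg adjustment over all tested genes. Log2 fold changes are given on that scale, on which a change looks smaller than it is wherever FPKM is low. In SK/EPI cells compared with SK-BR-3 cells, 2 of the 10 members were higher and 8 were lower at an adjusted p-value under 0.05. Of all 15823 genes tested, 74.9% passed the same threshold, 37.9% higher and 37% lower, so a passed test is the usual outcome in this comparison. The groups did not overlap in 9 of the 10 members, nor in 77.7% of all genes tested. After BCRP silencing, 9 members could be tested, of which 3 were higher, 2 were lower and 4 did not pass. The background there was 38.1% of 16298 genes, with 19.4% higher and 18.7% lower. The groups did not overlap in 5 of those 9 members, nor in 50.9% of all genes tested. In whole-culture RNA, fewer cells that express a gene and less of its RNA per cell cannot be told apart.

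**Figure D1:**
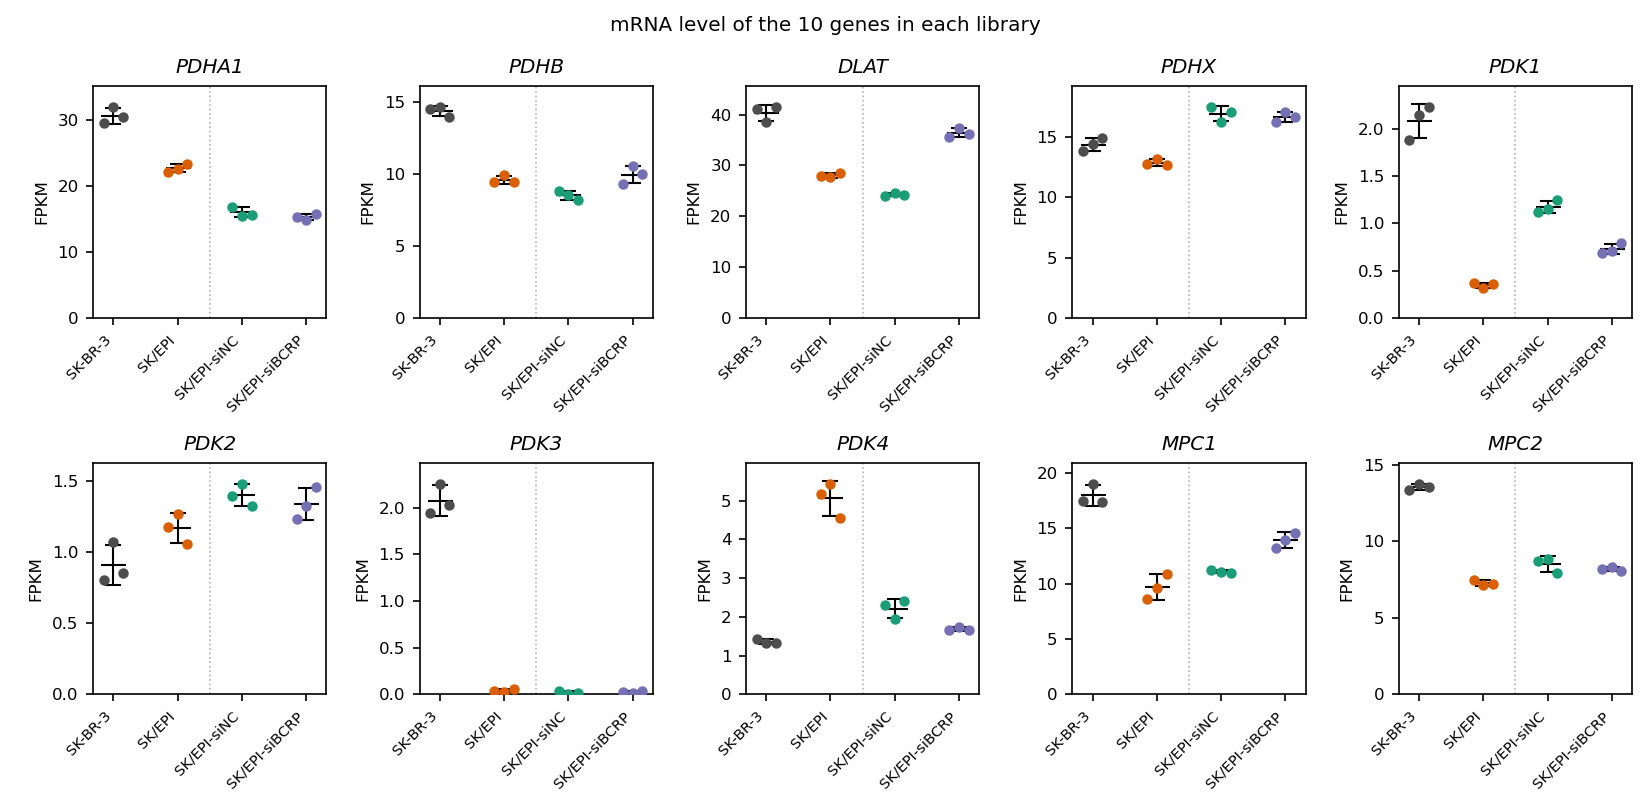
FPKM of each of the 10 genes in every library of the 4 groups, 1 panel per gene with its own linear axis from 0; points are libraries, and horizontal lines with bars are the mean and SD of 3 libraries, and the dotted line divides the tables. In SK/EPI libraries PDK4 sits between 4.56 and 5.44 FPKM, above all other libraries, while PDK3 is near 0 in every library but the 3 of SK-BR-3.

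The E1 genes were lower in SK/EPI cells. PDHA1 (ENSG00000131828, X:19343893-19361705, plus strand, GRCh38) encodes the chain that the kinases phosphorylate. Its level was 29.6, 32.0 and 30.4 FPKM in SK-BR-3 replicates 1 to 3 and 22.1, 22.6 and 23.3 FPKM in SK/EPI replicates 1 to 3. Every SK/EPI library was below every SK-BR-3 library, with a log2 fold change of -0.42 (SE 0.04, adjusted p = 2.5e-05). PDHB (3:58427630-58433857, minus strand), the other E1 chain, was at 14.5, 14.7 and 14.0 FPKM in SK-BR-3 cells and at 9.42, 9.91 and 9.47 FPKM in SK/EPI cells. It fell by 0.54 on the log2 scale (SE 0.04, adjusted p = 4.6e-06), a 1.5-fold lower mean level.

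The E2 gene and the gene of the protein that binds E3 did not keep the same proportion. DLAT (11:112024814-112064390, plus strand) was the most abundant member per kilobase of exon in every SK-BR-3 and SK/EPI library. It was at 41.0, 38.5 and 41.5 FPKM in SK-BR-3 cells and at 27.8, 27.8 and 28.5 FPKM in SK/EPI cells, a log2 fold change of -0.51 (SE 0.04, adjusted p = 5.2e-06). PDHX (11:34915829-35020591, plus strand) was at 13.8, 14.4 and 14.9 FPKM in SK-BR-3 cells and at 12.7, 13.2 and 12.7 FPKM in SK/EPI cells. Its log2 fold change of -0.15 (SE 0.04, adjusted p = 0.0088) was the smallest of the members in size. It did not pass when the libraries were scaled to the reads on genes (log2 fold change -0.07, adjusted p = 0.124), without the mitochondrial chromosome (-0.05, 0.212) or with voom on the recovered reads (-0.08, 0.175). The ratio of PDHX to DLAT, which no scaling between libraries can alter, was 0.357 ± 0.0191 (SD, n = 3) in SK-BR-3 cells and 0.460 ± 0.0153 in SK/EPI cells, and its ranges did not overlap. That of PDHB to PDHA1 was 0.470 ± 0.0185 and 0.423 ± 0.0158, also without overlap.

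Both carrier genes were lower in SK/EPI cells, with larger fold changes than PDHA1, PDHB, DLAT and PDHX. MPC1 (6:166364919-166383013, minus strand) was at 17.5, 19.1 and 17.4 FPKM in SK-BR-3 cells and at 8.61, 9.63 and 10.9 FPKM in SK/EPI cells. It fell by 0.83 on the log2 scale (SE 0.08, adjusted p = 2.6e-05), with the wider spread on the SK/EPI side. MPC2 (1:167916729-167937040, minus strand) was at 13.4, 13.8 and 13.6 FPKM in SK-BR-3 cells and at 7.48, 7.16 and 7.20 FPKM in SK/EPI cells. Its log2 fold change was -0.82 (SE 0.04, adjusted p = 3.3e-07). Mean levels were 1.85-fold lower for MPC1 and 1.87-fold lower for MPC2, so the ratio of MPC1 to MPC2 was 1.32 ± 0.0515 (SD, n = 3) in SK-BR-3 and 1.34 ± 0.182 in SK/EPI cells, with overlapping ranges.

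The kinase genes did not change in 1 direction. PDK1 (2:172555373-172608669, plus strand), a target gene of the hypoxia-inducible factor HIF-1, was at 1.88, 2.14 and 2.23 FPKM in SK-BR-3 cells. In SK/EPI cells it was at 0.363, 0.316 and 0.359 FPKM, from 85 to 106 reads per library. The mean was 6.02-fold lower, with a log2 fold change of -1.19 (SE 0.06, adjusted p = 6.2e-07). PDK3 (X:24465221-24541862, plus strand), the kinase reported to be least held back by pyruvate, was at 1.95, 2.26 and 2.03 FPKM in SK-BR-3 cells, from 153, 202 and 191 reads. In SK/EPI cells it had 3, 2 and 5 reads, or 0.0309, 0.0224 and 0.0539 FPKM. Over the groups, 10 reads in SK/EPI against 546 in SK-BR-3 libraries gave a level 58.1-fold lower (exact 95% interval 31.4 to 122, for counting error only). The log2 fold change of PDK3 was -1.57 (SE 0.05, adjusted p = 7.3e-08). PDK3 passed the filter on low genes only through its SK-BR-3 libraries, so a difference was built into its being tested.

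PDK4 and PDK2 were higher in SK/EPI cells. PDK4 (7:95583499-95596491, minus strand), which fasting and glucocorticoids raise in other tissues, was at 1.44, 1.32 and 1.32 FPKM in SK-BR-3 cells and at 5.16, 5.44 and 4.56 FPKM in SK/EPI cells. Its mean was 3.71-fold higher, with a log2 fold change of 1.36 (SE 0.07, adjusted p = 6.9e-07), and the lowest SK/EPI library had over 3 times the level of the highest SK-BR-3 library. PDK2 (17:50094737-50112152, plus strand), the most widely expressed kinase of the family across tissues, was at 0.805, 1.07 and 0.853 FPKM in SK-BR-3 cells and at 1.18, 1.27 and 1.06 FPKM in SK/EPI cells. The groups overlapped at SK-BR-3 replicate 2. Its log2 fold change of 0.19 (SE 0.07, adjusted p = 0.040) did not pass with no filter on low genes (adjusted p = 0.160) or a pseudocount of 0.1 (0.0547). Nor did it pass without SK-BR-3 replicate 1 (adjusted p = 0.119) or 3 (0.107), or without SK/EPI replicate 1 (0.0887) or 2 (0.121).

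**Figure D2:**
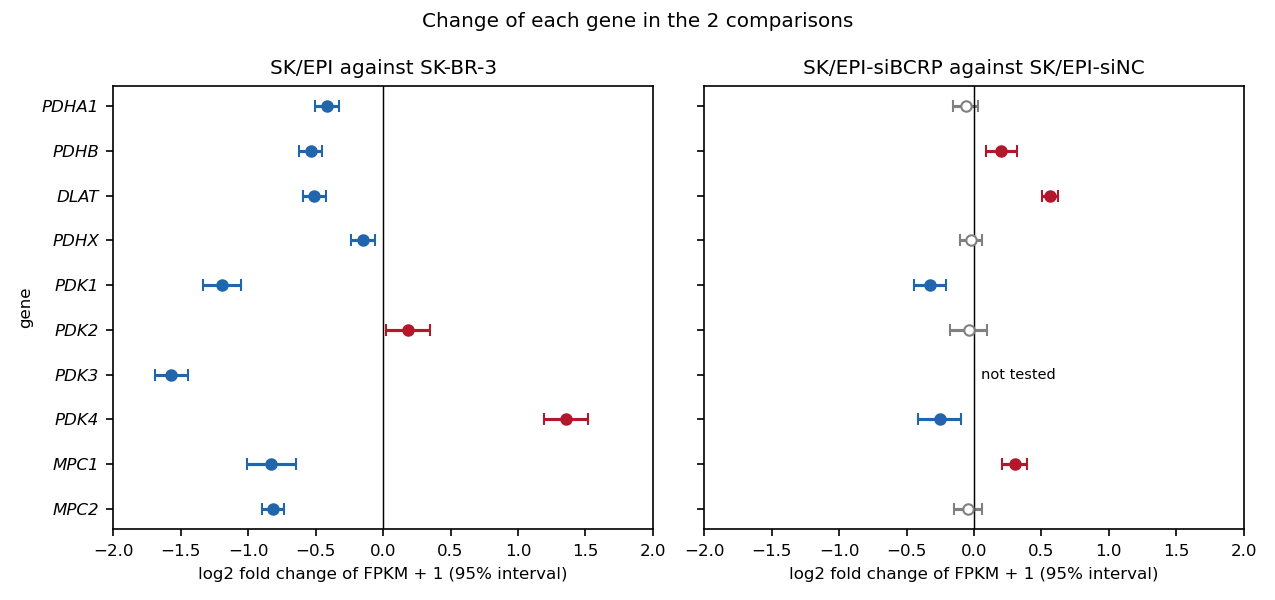
Log2 fold change of each member on the log2(FPKM + 1) scale with its 95% interval from limma, for SK/EPI against SK-BR-3 and for SK/EPI-siBCRP against SK/EPI-siNC; red and blue points passed the test upwards and downwards, and open points did not. On this scale PDK3, PDK1 and PDK4 lie farthest from 0 in the first comparison, at -1.57, -1.19 and 1.36. In the second, where PDK3 was not tested, DLAT lies farthest from 0 on it, at 0.57. The scale holds back genes with low FPKM, such as PDK1. With voom on recovered reads, PDK1 was farther from 0 (-0.69) than DLAT (0.58) after silencing.

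The 300 bases around the start site of the 3 kinase genes that moved most are shown because PDK1 and PDK3 fell while PDK4 rose. They run from 250 bases before to 50 after a start in RefSeq (GRCh38.p14), and capitals mark the letters ACGTG, the core that HIF binds, read on either strand (CACGT is the same site on the other strand). For PDK1, which has a second RefSeq start with no such match, the window with the matches is given:
PDK1, chr2:172555840-172556139, plus strand: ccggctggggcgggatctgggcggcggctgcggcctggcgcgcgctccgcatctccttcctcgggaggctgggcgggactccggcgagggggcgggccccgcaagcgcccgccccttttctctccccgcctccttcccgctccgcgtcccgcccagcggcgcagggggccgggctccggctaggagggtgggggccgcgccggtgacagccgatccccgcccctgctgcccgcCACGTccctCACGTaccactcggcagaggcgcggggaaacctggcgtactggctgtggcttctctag
PDK3, chrX:24465036-24465335, plus strand: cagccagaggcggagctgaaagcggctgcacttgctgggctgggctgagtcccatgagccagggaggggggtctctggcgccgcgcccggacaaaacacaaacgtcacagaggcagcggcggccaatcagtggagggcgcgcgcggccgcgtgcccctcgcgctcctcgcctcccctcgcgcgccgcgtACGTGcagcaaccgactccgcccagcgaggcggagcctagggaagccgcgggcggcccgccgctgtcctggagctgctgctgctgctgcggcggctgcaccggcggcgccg
PDK4, chr7:95596467-95596766, minus strand: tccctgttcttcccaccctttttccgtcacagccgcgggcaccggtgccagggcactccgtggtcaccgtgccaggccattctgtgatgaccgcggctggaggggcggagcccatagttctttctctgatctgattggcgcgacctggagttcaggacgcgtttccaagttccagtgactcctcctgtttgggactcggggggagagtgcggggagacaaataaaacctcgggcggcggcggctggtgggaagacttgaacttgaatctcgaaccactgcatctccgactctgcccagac
PDK1 holds the letters at 17 and 8 bases before the start, PDK3 at 61 bases before it, and PDK4 not at all. All 10 members matched RefSeq, with 16 windows between them. ACGTG was found on either strand in 6 of these windows (37.5%), 1 each of DLAT, PDHB, PDHX, PDK1, PDK2 and PDK3, and in 21.4% of all 35116 windows. CACGTG, which contains ACGTG on both strands, was found in 2 of the 16 windows (12.5%), of PDHB and PDK2, and in 7.26% of all windows. No member window held TNAAGGTCA, an estrogen-related receptor half-site (0.951% of all windows), or GTAAACA, a FOXO core (3.42%). A match or its absence describes these windows only and says nothing of binding.

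Because the kinases moved apart, their mix was computed within each library, where it does not depend on the scaling between libraries. By FPKM, PDK1 made up 32.4% ± 1.99 (SD, n = 3) of the summed PDK1 to PDK4 level in SK-BR-3 cells, PDK3 32.3% ± 0.889, PDK4 21.2% ± 2.17 and PDK2 14.1% ± 1.44. In SK/EPI cells PDK4 made up 76.4% ± 0.802, PDK2 17.7% ± 0.277, PDK1 5.27% ± 0.737 and PDK3 0.557% ± 0.300. The sum itself was 6.43 ± 0.364 FPKM in SK-BR-3 and 6.61 ± 0.519 FPKM in SK/EPI cells, with overlapping ranges. This overlap was seen per kilobase of merged exons, and not in the other units tried. Without a length the summed kinase level was 1.52-fold lower in SK/EPI cells, and per kilobase of the shortest principal transcript 1.88-fold lower, with ranges apart in both. The ratio of PDK4 to PDK1 was 0.764, 0.618 and 0.594 in SK-BR-3 replicates 1 to 3 and 14.2, 17.2 and 12.7 in SK/EPI replicates 1 to 3. The mix depends on the length used for each gene, since PDK1 has 14883 bases of merged exons and a shortest principal transcript of 2990 bases. Per kilobase of the principal transcript, PDK1 made up 54.9% in SK-BR-3 cells and 17.2% in SK/EPI cells, and PDK4 9.15% and 63.4%. PDK4 was the leading kinase in SK/EPI cells by FPKM, by reads and per principal transcript alike.

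**Figure D3:**
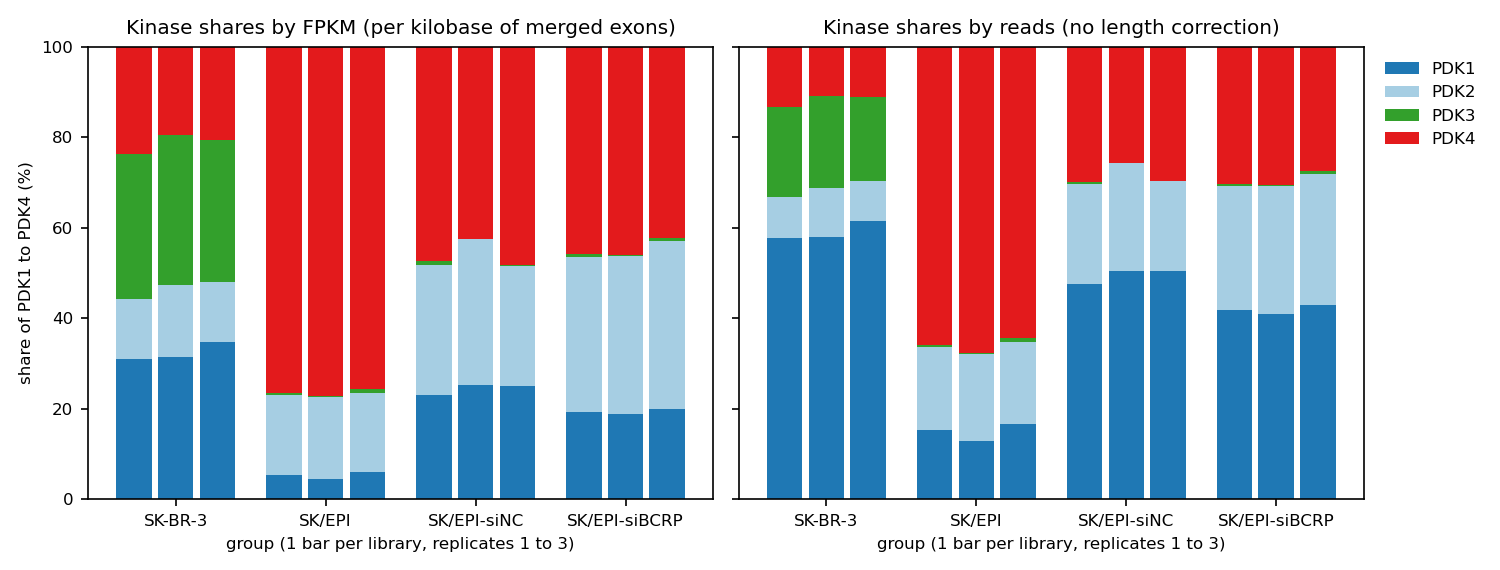
Share of each kinase gene in the summed PDK1 to PDK4 FPKM, as stacked bars for each of the 12 libraries, with the same shares by reads in the right panel. By FPKM PDK4 takes 75.6% to 77.1% in the SK/EPI libraries and 19.5% to 23.7% in the SK-BR-3 libraries, where PDK1 and PDK3 each take between 30.98% and 34.7%.

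After BCRP silencing, members changed in both directions. DLAT was at 24.0, 24.6 and 24.2 FPKM in SK/EPI-siNC replicates 1 to 3 and in SK/EPI-siBCRP replicates 1 to 3 at 35.6, 37.4 and 36.2 FPKM. Its mean was 1.5-fold higher, with a log2 fold change of 0.57 (SE 0.03, adjusted p = 9.2e-06). PDHB was at 8.79, 8.56 and 8.20 FPKM in SK/EPI-siNC cells and at 9.33, 10.6 and 9.999 FPKM in SK/EPI-siBCRP cells, a log2 fold change of 0.20 (SE 0.05, adjusted p = 0.015). Both groups stood apart in DLAT and PDHB, but the gap in PDHB was small. PDHA1 was at 16.9, 15.5 and 15.7 FPKM in SK/EPI-siNC cells and at 15.3, 14.9 and 15.8 FPKM in SK/EPI-siBCRP cells. Its log2 fold change of -0.06 (95% interval -0.15 to 0.03, adjusted p = 0.27) did not pass. PDHX was at 17.5, 16.3 and 17.1 FPKM in SK/EPI-siNC cells and at 16.3, 17.1 and 16.7 FPKM in SK/EPI-siBCRP cells, with a log2 fold change of -0.02 (95% interval -0.10 to 0.06, adjusted p = 0.68).

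The subunit genes therefore stood in other proportions after silencing. The ratio of DLAT to PDHA1 was 1.42, 1.59 and 1.55 in SK/EPI-siNC cells and 2.33, 2.51 and 2.30 in SK/EPI-siBCRP cells. DLAT had 1.32 ± 0.0998 (SD, n = 3) times the PDHA1 level in SK-BR-3 cells and 1.24 ± 0.0197 times in SK/EPI cells. The ratio of PDHX to DLAT was 0.699 ± 0.0345 in SK/EPI-siNC and 0.459 ± 0.00253 in SK/EPI-siBCRP cells, without overlap. That of PDHB to PDHA1 was 0.532 ± 0.0176 and 0.651 ± 0.0510, also without overlap.

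Of the carrier genes, MPC1 was at 11.3, 11.1 and 10.97 FPKM in SK/EPI-siNC cells and at 13.2, 13.9 and 14.6 FPKM in SK/EPI-siBCRP cells. Every silenced library was above every control library, with a log2 fold change of 0.30 (SE 0.04, adjusted p = 0.00098). MPC2 was at 8.73, 8.87 and 7.95 FPKM in SK/EPI-siNC cells and at 8.21, 8.32 and 8.07 FPKM in SK/EPI-siBCRP cells, with a log2 fold change of -0.05 (95% interval -0.15 to 0.06, adjusted p = 0.44). The ratio of MPC1 to MPC2 was 1.31 ± 0.0667 (SD, n = 3) in SK/EPI-siNC and 1.70 ± 0.105 in SK/EPI-siBCRP cells.

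Among the kinase genes, PDK1 was at 1.12, 1.15 and 1.24 FPKM in SK/EPI-siNC cells and at 0.690, 0.711 and 0.792 FPKM in SK/EPI-siBCRP cells. The mean was 1.60-fold lower, with a log2 fold change of -0.33 (SE 0.05, adjusted p = 0.0023). PDK1 is also the member with a match to the seed of the lower siRNA strand, and the part of that match in its level was not tested. PDK1 has the most bases of merged exons among the members (14883), and matches were counted without regard to length. PDK4 was at 2.30, 1.94 and 2.40 FPKM in SK/EPI-siNC cells and at 1.65, 1.74 and 1.67 FPKM in SK/EPI-siBCRP cells, a log2 fold change of -0.26 (SE 0.07, adjusted p = 0.022). This fall did not pass with no filter on low genes (adjusted p = 0.0768), without SK/EPI-siBCRP replicate 1 (0.0593) or 3 (0.0572), or without SK/EPI-siNC replicate 1 (0.0657) or 3 (0.0672). PDK2 was at 1.40, 1.49 and 1.33 FPKM in SK/EPI-siNC cells and at 1.24, 1.33 and 1.46 FPKM in SK/EPI-siBCRP cells, with a log2 fold change of -0.04 (95% interval -0.18 to 0.10, adjusted p = 0.65). PDK3 had 4, 0 and 1 reads in SK/EPI-siNC and 2, 1 and 3 reads in SK/EPI-siBCRP libraries, too few to be tested. The summed kinase level was 4.80 ± 0.204 FPKM (SD, n = 3) in SK/EPI-siNC and 3.78 ± 0.180 FPKM in SK/EPI-siBCRP cells, without overlap.

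**Figure D4:**
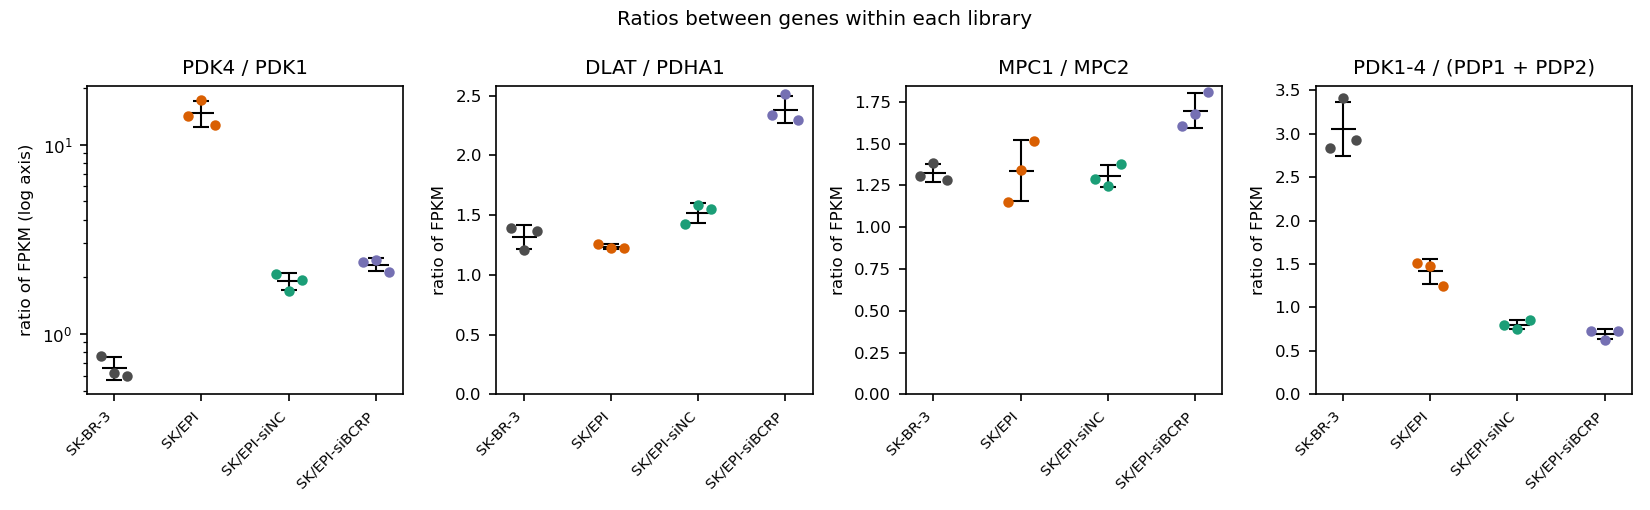
Ratios between genes within each library for the 4 groups, with PDK4 to PDK1 on a log axis and the others on linear axes from 0; points are libraries, lines and bars the mean and SD of 3. PDK4 to PDK1 is highest in SK/EPI libraries (mean 14.7), while DLAT to PDHA1 (mean 2.38) and MPC1 to MPC2 (mean 1.70) are highest in SK/EPI-siBCRP libraries.

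SK/EPI and SK/EPI-siNC cells stand in separate tables that may have been normalized separately, so their levels were not tested against each other. Set side by side, PDK4 was 5.05 ± 0.448 FPKM (SD, n = 3) in SK/EPI and 2.21 ± 0.240 FPKM in SK/EPI-siNC cells, and PDK1 was 0.346 ± 0.0261 and 1.17 ± 0.0643 FPKM. Within libraries, the ratio of PDK4 to PDK1 was 14.7 ± 2.29 in SK/EPI, 1.89 ± 0.192 in SK/EPI-siNC and 2.32 ± 0.181 in SK/EPI-siBCRP cells. By FPKM, PDK4 was the leading kinase in SK/EPI-siNC (46.0% ± 3.14 of the sum) and SK/EPI-siBCRP cells (44.7% ± 2.11). By reads and per principal transcript PDK1 led instead, at 49.5% and 53.4% in SK/EPI-siNC and 41.9% and 45.7% in SK/EPI-siBCRP cells. PDK3 stayed at 5 reads or fewer in all 9 libraries of the resistant line. Transfection, culture and the making of the separate tables cannot be told apart as sources of the differences between SK/EPI and SK/EPI-siNC cells.

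Read across both comparisons, which share no library, PDK1 was lower in SK/EPI than in SK-BR-3 cells. After BCRP silencing it was lower than in SK/EPI-siNC cells. These falls were not steps of 1 course. Mean PDK1 was 0.346 FPKM in SK/EPI, 1.17 FPKM in SK/EPI-siNC and 0.731 FPKM in SK/EPI-siBCRP cells. DLAT, PDHB and MPC1 were lower in the resistant line and higher after silencing, and PDK4 was higher in the resistant line and lower after silencing. Changes after silencing are against SK/EPI-siNC cells, and a return to SK-BR-3 levels was not tested. In SK/EPI, SK/EPI-siNC and SK/EPI-siBCRP cells, mean DLAT was 28.03, 24.28 and 36.44 FPKM. Mean PDHB was 9.602, 8.518 and 9.962 FPKM, and mean MPC1 9.718, 11.1 and 13.92 FPKM. So SK/EPI-siNC means lay below SK/EPI means for DLAT and PDHB, and above for MPC1. How many of all genes had opposite calls was not counted. Mean PDK4 was 5.05 FPKM in SK/EPI, 2.21 FPKM in SK/EPI-siNC and 1.69 FPKM in SK/EPI-siBCRP cells. PDHA1, PDHX and MPC2 were lower in the resistant line and did not pass the test after silencing. The fall of PDHX in the resistant line and that of PDK4 after silencing did not pass under every setting, as given above. The rise of PDHB after silencing did not pass at an adjusted p-value under 0.01. With a library left out, its adjusted p reached 0.0486.

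The E3 enzyme and the phosphatases complete the complex. DLD, the E3 enzyme that other dehydrogenase complexes share, was at 44.8, 47.8 and 46.8 FPKM in SK-BR-3 cells and at 24.5, 26.2 and 25.6 FPKM in SK/EPI cells (log2 fold change -0.85, SE 0.04, adjusted p = 3.5e-07). After silencing it rose from 34.5, 34.8 and 34.6 to 44.6, 44.7 and 45.2 FPKM (log2 fold change 0.36, SE 0.02, adjusted p = 1.5e-05). PDP1 was at 0.484, 0.504 and 0.506 FPKM in SK-BR-3 and at 1.37, 1.46 and 1.42 FPKM in SK/EPI cells, 2.84-fold higher in the mean (adjusted p = 3.6e-06). PDP2, at 1.66, 1.49 and 1.70 against 3.08, 3.30 and 3.42 FPKM, was 2.02-fold higher (adjusted p = 1.7e-05). PDPR, a regulator of the phosphatase, was 1.56-fold higher (adjusted p = 3.3e-05). After silencing PDPR was 1.48-fold higher (adjusted p = 3.0e-05), PDP2 was 1.18-fold lower (adjusted p = 0.040), and PDP1 did not pass (adjusted p = 0.22). The ratio of summed kinase to summed PDP1 and PDP2 levels was 3.06 ± 0.310 (SD, n = 3) in SK-BR-3 and 1.41 ± 0.146 in SK/EPI cells, and 0.800 ± 0.0525 in SK/EPI-siNC and 0.692 ± 0.0562 in SK/EPI-siBCRP cells. Between SK-BR-3 and SK/EPI cells this was a 2.16-fold lower ratio by FPKM, 3.28-fold lower by reads and 4.43-fold lower per kilobase of the shortest principal transcripts. PDHA2 and MPC1L, the testis forms of PDHA1 and MPC1, had no more than 1 read in any library.

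DLAT works only once lipoic acid has been attached to it, and 13 genes of lipoic acid and iron-sulfur cluster supply were counted. In SK/EPI cells 4 were higher and 7 were lower, with a median log2 fold change of -0.15, against 0.01 over all tested genes. Among all tested genes, 37.9% were higher and 37% lower. The higher ones were LIAS, LIPT1, LIPT2 and ISCA2, the first being lipoyl synthase and the next pair lipoyl transferases. NFU1, BOLA3, IBA57, ISCA1, MECR, MCAT and NDUFAB1 were lower, and these build iron-sulfur clusters or the fatty acid from which lipoate is made. After silencing 5 were higher (BOLA3, GLRX5, ISCA1, MCAT and NDUFAB1), and the median was 0.18. Among all tested genes, 19.4% were then higher and 18.7% lower. No gene of the list was lower by limma, at an unadjusted p-value under 0.05 or with voom (0 in each case).

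Of 6 tested genes of the related 2-oxoacid dehydrogenases, 3 were higher and 3 lower in SK/EPI cells. A split is usual there, since 37.9% of all genes tested were higher and 37% lower. OGDH, the E1 of 2-oxoglutarate dehydrogenase, rose 1.31-fold (adjusted p = 8.8e-05), while DLST, its E2, was 2.00-fold lower (adjusted p = 2.9e-08). PPM1K, the phosphatase of the branched-chain complex, was at 0.0794 ± 0.0225 FPKM (SD, n = 3) in SK-BR-3 and at 0.861 ± 0.00735 FPKM in SK/EPI cells (adjusted p = 6.3e-07), and its kinase BCKDK was 1.43-fold lower (adjusted p = 4.4e-05). After silencing OGDH, DLST and BCKDHB were higher and DBT and BCKDK lower, against 19.4% of all genes tested higher and 18.7% lower. DLST rose 1.58-fold (adjusted p = 3.5e-06), so the E2 genes DLAT and DLST were both lower in SK/EPI cells and both higher after silencing, whereas the branched-chain E2 gene DBT was lower in both comparisons.

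Of 13 tested genes for other sources and fates of pyruvate, 2 were higher and 11 lower in SK/EPI cells, with a median log2 fold change of -0.42. The shares over all genes tested were 37.9% higher and 37% lower. One of the 11, SLC16A7, had 19 to 27 reads in SK-BR-3 and 0 in SK/EPI libraries and passed the filter only through SK-BR-3 cells, and without it the median was -0.44. LDHA, which turns pyruvate into lactate, was at 259 ± 6.87 FPKM (SD, n = 3) in SK-BR-3 and at 99.3 ± 3.13 FPKM in SK/EPI cells, 2.61-fold lower (adjusted p = 2.3e-08). SLC16A1, the lactate and pyruvate transporter MCT1, was 10.9-fold higher (adjusted p = 1.4e-08), and SLC16A3, the lactate exporter MCT4, was 1.63-fold lower (adjusted p = 4.3e-06). CS, which condenses the acetyl-CoA made by the complex into citrate, was 1.41-fold lower (adjusted p = 1.6e-05). After silencing 4 were higher (PKM, LDHB, SLC16A1 and CS) and 3 lower (LDHA, PC and ME1), with a median of 0.02. The shares over all genes tested were then 19.4% higher and 18.7% lower. CS rose 1.35-fold (adjusted p = 1.4e-05) and LDHA was 1.18-fold lower (adjusted p = 0.00043).

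Transcription factors known to act on PDK genes moved both ways in SK/EPI cells, with 5 of 12 tested higher and 6 lower. So did genes at large, with 37.9% of all genes tested higher and 37% lower. HIF1A was 2.14-fold higher (adjusted p = 1.0e-07), while its partner ARNT was 1.47-fold lower (adjusted p = 4.1e-05) and EPAS1, the HIF-2 alpha gene, was 1.65-fold lower (adjusted p = 5.3e-07). Of 10 HIF target genes, 2 (VEGFA and ADM) were higher and 7 were lower, with a median log2 fold change of -0.73. CA9, among the lower ones, had 24 to 39 reads in SK-BR-3 and 0 to 3 in SK/EPI libraries and passed the filter only through SK-BR-3 cells, and without it 6 of 9 were lower, with a median of -0.70. SLC2A1 was 5.54-fold lower (adjusted p = 5.5e-10) and NDRG1 12.3-fold lower (adjusted p = 1.1e-10), on the same side as PDK1. On the other side, VEGFA was 1.96-fold higher (adjusted p = 4.4e-07) and ADM 1.82-fold higher (adjusted p = 0.00035). Among factors known for raising PDK4, NR3C1, the glucocorticoid receptor, was 2.05-fold higher (adjusted p = 1.7e-06), PPARA was 1.79-fold higher (adjusted p = 2.7e-05), and FOXO1 was 2.34-fold lower (adjusted p = 3.7e-05). PPARD was 1.84-fold lower (adjusted p = 2.5e-06), RXRA 1.40-fold lower (adjusted p = 1.3e-05) and ESRRA 1.25-fold lower (adjusted p = 0.00019), while FOXO3 was 1.22-fold higher (adjusted p = 0.0099). After silencing 2 of the 12 factors were higher (ESRRA and E2F1) and 4 lower (EPAS1, ARNT, FOXO1 and NR3C1). Of the 10 HIF targets 3 were higher and 3 lower, against 19.4% and 18.7% of all genes tested after silencing. NR3C1 was then 1.38-fold lower (adjusted p = 0.00082). The part of any of these factors in the PDK levels was not tested.

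**Figure D5:**
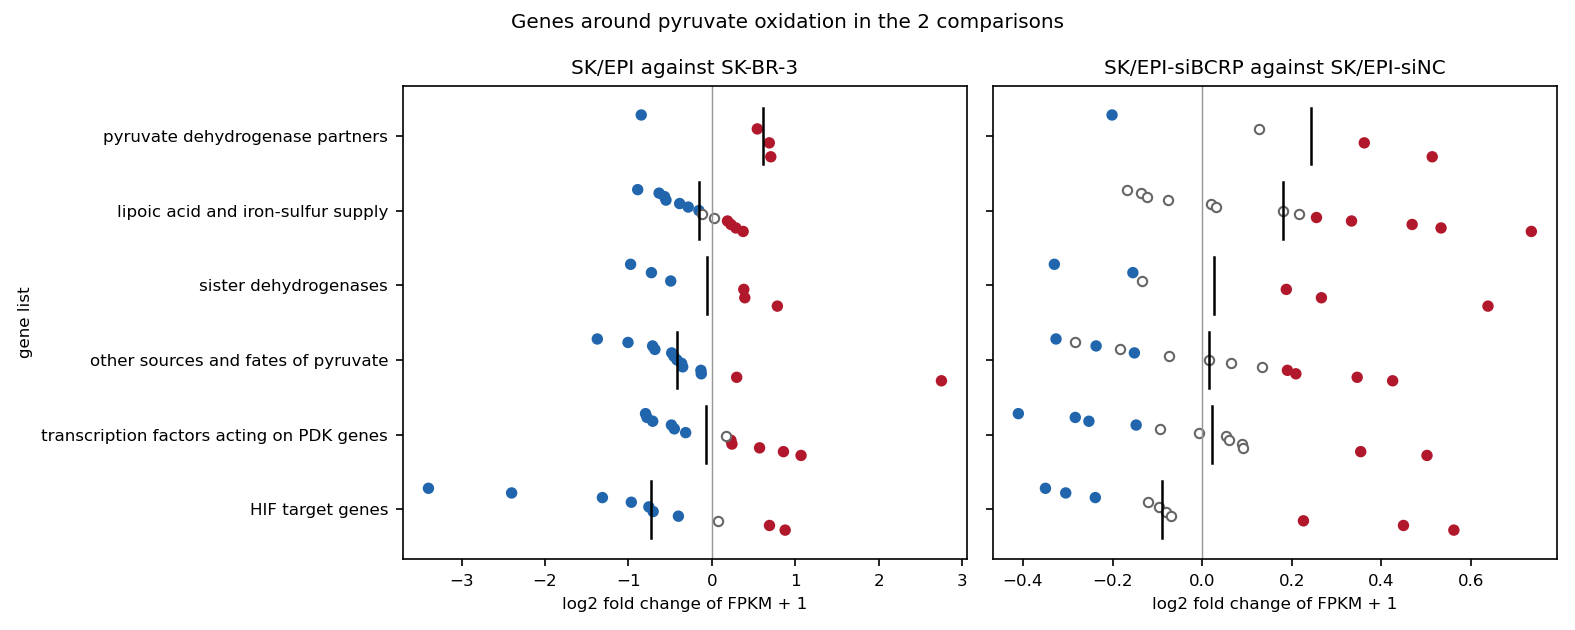
Log2 fold changes of the tested genes of each list, with 1 point per gene, in both comparisons on axes of different width; red and blue points passed the test upwards and downwards, open points did not pass, and black bars are list medians. HIF target genes lie mostly below 0 in SK/EPI cells (median -0.73), and the other pyruvate genes have a median of -0.42 there and of 0.02 after BCRP silencing.

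Over the 12 libraries, with each table centred on its mean, the tested genes nearest to PDHA1 in log2(FPKM + 1) were H2AFY, UBE2D3 and TUFT1. Their root mean square differences from it were 0.0309, 0.0314 and 0.0352, the smallest among 15151 candidates. The nearest to PDK3 were ZWINT, FARP1 and MAL2, at 0.0343, 0.0383 and 0.0422 among 15152 candidates. Since the groups set most of this pattern, the likeness describes similar group differences on this scale and little beyond them. In SK/EPI cells ZWINT, FARP1 and MAL2 were at -1.53, -1.60 and -1.60 on it, near the -1.57 of PDK3. With voom on recovered reads, where no pseudocount holds back low genes, PDK3 was at -5.65. PDK3 also had too few reads to be tested after silencing.

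Part of some members' exons is also exon of a gene on the other strand, and the library kit does not mark strand. This holds for 38.6% of the PDK2 exons (SAMD14), 22.5% of MPC2 (DCAF6), 21.3% of PDHA1 (MAP3K15) and 7.63% or less of PDHB, PDHX, DLAT and PDK1. PDK3, PDK4 and MPC1 share none. SAMD14 and MAP3K15 had means of 0.0340 FPKM or lower in every group. DCAF6 was at 8.52 ± 0.828 FPKM (SD, n = 3) in SK-BR-3 and at 10.1 ± 0.661 FPKM in SK/EPI cells, the direction opposite to that of MPC2. After silencing DCAF6 was lower (log2 fold change -0.23, adjusted p = 0.0044), the sign that MPC2 had without passing. APIP, which shares 6.89% of the PDHX exons, was higher in SK/EPI cells (log2 fold change 0.33, adjusted p = 0.00065) and after silencing (0.31, 0.0035).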

How the data were processed

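RNA-seq libraries were made by the authors from poly-A selected RNA of 12 samples, with group and replicate taken from the labels. The submitters' processing notes name HISAT2 2.0.5, featureCounts 1.5.0-p3, DESeq2 1.16.1 and build hg38. Whether counting used the strand is not given in the sources used here. The authors deposited FPKM in 2 tables that state no unit. Multiplied by its gene's merged exons in GENCODE 29, 100% of the values above 0 came to whole numbers of 1 unit per library (tolerance 0.01), so reads were recovered. Library sums differed, unlike TPM. The total by which the authors divided is not the sum over genes, and reads on genes came to 89.5% to 101% of it.

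The design named a count model, with limma on log2(FPKM + 1) for normalized values, and the latter was used. A gene needed 10 reads or more, at the median depth, in 3 or more libraries and 15 reads in total, and was tested in each table with limma 3.58.1 (lmFit, eBayes with a trend) in R 4.3.3, on the group alone. Benjamini-Hochberg adjustment ran over all tested genes, with a threshold of 0.05. SD are over 3 libraries. The steps were tested on simulated data. All members were named, list genes that were called could be named and the others were counted, and the genes nearest in pattern were taken by root mean square difference. The members and lists were chosen with earlier results of these data known. Promoter windows are from RefSeq and the siRNA from the study's oligonucleotide list. Alternatives were other filters, a pseudocount of 0.1, 3 other scalings, limma's voom, a replicate block, leaving out each library and an adjusted p-value under 0.01. Python 3.11.15 was used for the rest.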

Additional observations from a re-analysis of the deposited data

How the results depend on the processing

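Of 262 values of single members under other settings, 247 kept their direction and side of the threshold, 14 kept their direction but no longer passed, and 1 turned, PDHX after silencing without SK/EPI-siNC replicate 1 (log2 fold change 0.00092, adjusted p = 0.988, not called in either case, and -0.050 to 0.00092 with each library left out). The losses were of PDHX and PDK2 in SK/EPI cells and of PDK4 after silencing, with values in the report. PDK3 was not tested in SK/EPI cells with at least 10 reads required in every library, or without any 1 of the SK-BR-3 libraries. With voom on recovered reads, where low genes are not held back by a pseudocount and the median of all genes was 0.10 in place of 0.01, the log2 fold changes in SK/EPI cells were -2.50 for PDK1, -5.65 for PDK3 and 1.97 for PDK4, and after silencing -0.69 for PDK1 and -0.40 for PDK4. After silencing, an adjusted p-value under 0.01 left 3853 of 6215 genes and 3 of 5 members (PDHB and PDK4 lost). With each library left out, 8 to 10 members were called in SK/EPI cells and 4 to 5 after silencing, and 10345 to 11132 and 5132 to 5417 genes.

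In the first table same-numbered libraries did not deviate together (correlations of -0.070 to 0.011), and 1 of 6 libraries correlated best with its own number. In the second, their correlations were low but all positive (0.036 to 0.102). The mean there was 0.059, against -0.030 for different numbers, and 4 of 6 libraries correlated best with their own number. The numbers were not read as pairs in the main tests. With the replicate block, 11656 and 5640 genes were called, and all 10 and 5 members, as without it.

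The kinase mix depended on the unit of level, the reason being gene length. As a share of reads, PDK1, PDK2, PDK3 and PDK4 made up 59.1%, 9.48%, 19.6% and 11.8% in SK-BR-3 cells. In SK/EPI cells PDK1, PDK2 and PDK4 made up 15.0%, 18.6% and 66.0%, in SK/EPI-siNC cells 49.5%, 21.9% and 28.4%, and in SK/EPI-siBCRP cells 41.9%, 28.3% and 29.4%. Per kilobase of the shortest principal transcript, a unit chosen after seeing the data, the shares of PDK1, PDK2, PDK3 and PDK4 were 54.9%, 7.65%, 28.3% and 9.15% in SK-BR-3 cells and 17.2%, 18.5%, 0.934% and 63.4% in SK/EPI cells. PDK1, PDK2 and PDK4 then made up 53.4%, 20.6% and 25.6% in SK/EPI-siNC cells and 45.7%, 26.8% and 26.8% in SK/EPI-siBCRP cells. The fold of the summed kinase level in SK/EPI over SK-BR-3 cells, 1.03 by FPKM, turned to 0.659 by reads and 0.533 per principal transcript, a comparison added after seeing the data. Depth limits PDK3 in the resistant line, where 0 to 5 reads per library allow no comparison of silenced with control cells.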

Other observations

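The chromosomal neighbourhood of PDK4, PDK3 and PDK1 was read as values. For scale, 37.9% of all genes tested were higher and 37% lower in SK/EPI cells, and 19.4% and 18.7% after silencing. Of the 7 tested genes within 1 Mb of PDK4, none was higher and 7 were lower by limma in SK/EPI cells, with a median log2 fold change of -0.68, while PDK4 itself was at 1.36. At an unadjusted p-value under 0.05 and with voom, 0 were higher as well. After silencing, 4 were tested, of which none was higher by limma, unadjusted or with voom, and 1 was lower. Of the 11 tested genes within 1 Mb of PDK3, 5 were higher and 4 lower in SK/EPI cells, with a median of 0.08, while PDK3 was at -1.57. Of the 11 within 1 Mb of PDK1, 5 were higher and 6 lower, with a median of -0.35, while PDK1 was at -1.19.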
